A study of Mus musculus with 6 samples.

Results

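Heat shock proteins and their DNAJ partners were examined in cultured adult mouse dorsal root ganglion (DRG) neurons, the sensory neurons whose cell bodies sit beside the spinal cord. The members were the protein-coding genes whose symbols begin with Dnaja, Dnajb or Dnajc and a number, with Hspa, Hspb, Hspd, Hspe or Hsph and a number, or with Hsp90. That rule found 72 genes among the 45777 in the table, of which 45 encode DNAJ proteins and 27 encode heat shock proteins. The ONCM group held 3 libraries of cultures given recombinant oncomodulin, a calcium-binding protein released by immune cells and known to promote axon regeneration, at 100 ng/ml for 12 hours. The PBS group held 3 libraries of cultures that received the buffer alone. All 6 samples are labelled as wild-type female C57BL/6 mice aged 8 weeks, and the titles call the replicates biological without saying whether they came from separate animals or cultures. The p-values therefore measure the spread between these samples, which may be technical.

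Heat shock proteins are chaperones, which bind unfolded or aggregation-prone polypeptides and help them to fold. The Hsp70 proteins (Hspa genes) do this in cycles of ATP hydrolysis that DNAJ proteins start through their J domain, while Hsp90 proteins finish the folding of kinases and receptors and the small heat shock proteins (Hspb genes) hold unfolded clients. In the cytosol the inducible members are switched on by the transcription factor Hsf1 through heat shock elements. In the endoplasmic reticulum (ER) a separate set, led by Hspa5 (BiP), is switched on by the unfolded protein response through Atf6 and Xbp1. In sensory neurons Hspb1 is known as a gene induced by nerve injury and needed for survival.

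The promoters of the ER genes that carry an element of the unfolded protein response are shown here, with those of members that carry a heat shock element, because these elements are how the pathways above reach their genes. Of the 72 members, 58 had an entry in the RefSeq promoter table of build GRCm38.p6, which covers 250 bases before to 50 bases after each start site. The ER stress response element was searched as CCAAT and CCACG with 9 bases between them, the heat shock element as GAA, TTC and GAA with 2 bases between each, and a further element of the unfolded protein response as TGACG followed by TGG, all on both strands. The first matched 3 of the 58 members, all of them among the 6 genes of the ER lumen with an entry, and 0.137% of all 27025 genes with an entry. The second matched 4 of the 58 members and 0.662% of all genes with an entry. Among these 4, Hspd1 and Hspe1 share the same matches. The last matched Dnajc25 alone and 0.714% of all genes with an entry. Only the 250 bases before the start site are printed, read 5′ to 3′ on the gene's strand, with the fixed letters of a match in capitals.
Hspa5 (chr2:34771840-34772089, plus strand): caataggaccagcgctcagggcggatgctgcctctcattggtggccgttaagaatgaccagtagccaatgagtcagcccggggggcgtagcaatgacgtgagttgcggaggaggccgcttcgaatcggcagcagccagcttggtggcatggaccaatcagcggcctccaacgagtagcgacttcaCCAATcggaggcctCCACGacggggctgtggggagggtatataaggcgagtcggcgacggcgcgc
Hsp90b1 (chr10:86705445-86705694, minus strand): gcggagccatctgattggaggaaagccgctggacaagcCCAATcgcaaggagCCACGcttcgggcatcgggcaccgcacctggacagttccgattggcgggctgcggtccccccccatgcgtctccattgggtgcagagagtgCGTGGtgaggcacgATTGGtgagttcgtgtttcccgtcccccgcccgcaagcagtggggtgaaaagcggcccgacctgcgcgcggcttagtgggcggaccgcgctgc
Dnajc3 (chr14:118937682-118937931, plus strand): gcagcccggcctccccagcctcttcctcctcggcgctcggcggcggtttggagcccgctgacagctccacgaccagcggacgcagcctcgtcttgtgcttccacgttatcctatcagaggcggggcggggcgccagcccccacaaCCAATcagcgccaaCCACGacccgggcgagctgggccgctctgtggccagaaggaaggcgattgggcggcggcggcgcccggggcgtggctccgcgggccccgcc
Dnajb6 (chr5:29735648-29735897, plus strand): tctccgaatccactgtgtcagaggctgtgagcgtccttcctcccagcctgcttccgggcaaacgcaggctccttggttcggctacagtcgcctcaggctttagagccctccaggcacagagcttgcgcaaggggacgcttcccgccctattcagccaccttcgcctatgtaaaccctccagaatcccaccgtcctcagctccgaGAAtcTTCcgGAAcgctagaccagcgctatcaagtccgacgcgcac
The mitochondrial chaperonin genes Hspd1 and Hspe1 lie head to head on chromosome 1, and their outermost exons overlap. The stretch between the Hspe1 start site and the Hspd1 start site used here holds 2 heat shock element matches on opposite strands, which overlap each other.
Hspd1 and Hspe1 (chr1:55087933-55088147, plus strand, read towards Hspe1): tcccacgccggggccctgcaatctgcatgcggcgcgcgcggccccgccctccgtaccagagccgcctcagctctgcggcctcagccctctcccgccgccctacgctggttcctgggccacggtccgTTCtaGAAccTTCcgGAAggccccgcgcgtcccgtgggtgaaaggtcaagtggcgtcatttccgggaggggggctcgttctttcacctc
The remaining match was in Hsph1, after its start site. For comparison, the inducible cytosolic genes with the largest fall and the largest rise, Dnajb1 and Hspb1, are printed too, and they had no match to any of the 3 sets of letters in their windows.
Dnajb1 (chr8:83607925-83608174, plus strand): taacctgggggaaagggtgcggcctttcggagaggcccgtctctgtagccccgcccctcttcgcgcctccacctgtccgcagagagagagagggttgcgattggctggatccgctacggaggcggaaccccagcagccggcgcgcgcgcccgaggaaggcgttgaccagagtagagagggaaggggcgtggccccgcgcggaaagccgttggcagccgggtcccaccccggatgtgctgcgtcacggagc
Hspb1 (chr5:135887669-135887918, plus strand): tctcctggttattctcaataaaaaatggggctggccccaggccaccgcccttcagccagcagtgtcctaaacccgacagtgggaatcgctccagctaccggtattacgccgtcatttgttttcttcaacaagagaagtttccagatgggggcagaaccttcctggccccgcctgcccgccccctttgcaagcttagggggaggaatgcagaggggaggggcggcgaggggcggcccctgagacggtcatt
A match describes these letters alone, and a window without one only lacks these letters.

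The libraries held 53770820 to 60291315 counts with ONCM and 55920700 to 64477014 with PBS. All 10 pan-neuronal markers were detected in these cultures, at a summed 16924 to 17794 CPM (counts scaled to library size) with ONCM and 16526 to 16905 CPM with PBS (3 rose, 6 fell). These sums joined opposite shifts, as Tubb3, Stmn2 and Uchl1 rose while Nefm, Nefh, Snap25, Rbfox3, Elavl4 and Syt1 fell. Other cells were present, and several marker lists moved with the treatment. Of 10 sensory neuron markers 8 fell and 2 did not pass, with sums of 2900 to 2948 CPM against 4365 to 4494 CPM. All 12 macrophage markers rose, with sums of 179.8 to 188.8 CPM against 50.1 to 56.2 CPM. Fibroblast markers summed to 429 to 449 CPM with ONCM and 296 to 300.1 CPM with PBS (4 of 6 rose), and Schwann cell markers to 3747 to 3900 CPM against 3598 to 3667 CPM (5 of 8 rose, 1 fell). Endothelial markers (4 of 6 rose) summed to 162 to 172 against 132 to 135 CPM, satellite glia markers (1 of 6 rose) to 1756 to 1898 against 1685 to 1753 CPM, and T cell and granulocyte markers (2 of 7 rose) to 3.58 to 3.83 against 1.76 to 2.20 CPM. No marker was at 0 in every library. Ribosomal RNA genes took 0.179 to 0.194% of counts with ONCM and 0.238 to 0.259% with PBS, and the 10 most counted genes 4.42 to 4.45% against 4.68 to 4.74%, both without overlap. The X-linked RNA Xist stood at 413 to 513 CPM with ONCM and 0.485 to 0.588 CPM with PBS, and the Y-linked Ddx3y at 15.1 to 16.9 CPM against 58.1 to 62.4 CPM, although every sample is labelled female. These sex-linked values separated the groups completely, so a difference in the animals behind the cultures cannot be told apart from the treatment in any result given here. The part of the marker, ribosomal RNA and top-gene shifts in the results was not tested. In counts from mixed cultures, fewer cells of a type and less RNA per cell cannot be told apart.

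The same 6 chaperone genes led the family in both groups. On the TPM scale, which corrects for gene length, Hspa8, the constitutive Hsc70, averaged 3253 ± 9.62 with ONCM and 3692 ± 35.6 with PBS (SD, n = 3 each, as for all means here). Hsp90ab1 and Hsp90aa1, the constitutive and inducible cytosolic Hsp90, followed at 3234 ± 43.2 and 1768 ± 37.1 TPM with ONCM, against 3438 ± 58.0 and 1713 ± 36.1 TPM with PBS. Hspb1, Hspa5 and the mitochondrial Hsp70 gene Hspa9 came next, in that order, in both groups. The inducible Hsp70 genes Hspa1a and Hspa1b averaged 419 ± 31.5 and 385 ± 32.8 TPM with ONCM, against 430.2 ± 13.1 and 422 ± 14.4 TPM with PBS. With PBS, 22 members reached 100 TPM, and 6 were under 1 TPM. The 72 members together summed to 15798 ± 84.7 TPM with ONCM and 17020 ± 106 TPM with PBS, and the lowest PBS library (16954 TPM) lay above the highest ONCM library (15891 TPM). That gap was not shared evenly. The cytosolic constitutive genes held the largest part of it, at 7489 ± 62.3 TPM with ONCM and 8149 ± 53.6 TPM with PBS, without overlap. The cytosolic inducible genes summed to 4726 ± 48.8 against 4756 ± 38.1 TPM, with overlapping libraries, while the ER lumen genes summed to 1133 ± 17.0 against 1408 ± 22.8 TPM, without overlap. The typical gene lay lower with ONCM in TPM. Of the 20354 tested genes, 11818 had estimates below 0 on log2(TPM + 1), against 10242 on counts. The median log2 fold change of all tested genes was -0.043 on log2(TPM + 1), against -0.002 on counts. Hsp90ab1, lower with ONCM in TPM, did not pass on counts (log2 fold change -0.03). The part of the scale in these sums was not tested.

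**Figure D1:**
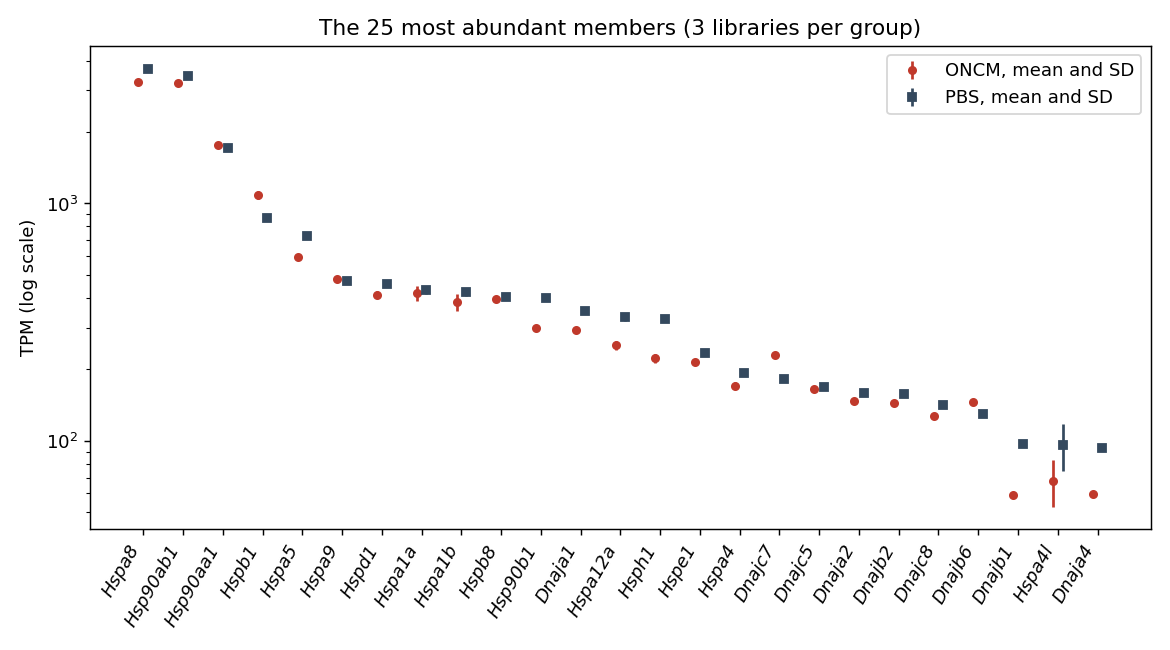
Mean TPM on a log axis for the 25 most abundant members, ONCM (circles, left) and PBS (squares, right), with SD bars over 3 libraries each. Hspa8 (3253 and 3692 TPM) and Hsp90ab1 lead in both groups, and 20 of the 25 ONCM means sit below their PBS means, with Hsp90aa1, Hspb1, Hspa9, Dnajc7 and Dnajb6 above.

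Of the 72 members, 66 had enough counts to be tested, and 6 did not (Dnajb7, Dnajb8, Dnajb13, Dnajc5g, Hspb3 and Hspb9, most of them known from germ cells, muscle or cilia). By edgeR's quasi-likelihood test at an adjusted p of 0.05, which is what "rose" and "fell" mean here, 25 of the 66 fell, 7 rose and 34 did not pass. Across all 20354 tested genes 24.4% fell and 23.9% rose. Among the 16118 tested protein-coding genes, the kind the members were drawn from, 28.1% fell and 26.0% rose. The members' total of 32 calls is 48.5% of those tested, against 48.3% of all tested genes and 54.1% of the protein-coding ones. How many members changed is therefore no result about them. The falls made up 37.9% of the members and the rises 10.6%. The median log2 fold change of ONCM over PBS was -0.06 over the members, -0.00 over all tested genes and -0.01 over the protein-coding ones. Most changes were small: 12 members fell by more than 1.25-fold, a size reached by falls in 13.9% of all tested genes, and 2 by more than 1.5-fold, against 7.0% of all tested genes. The groups did not overlap for 34 of the 66 members, against 55.6% of all tested genes and 9748 of the 16118 protein-coding ones. On the authors' TPM values (limma on log2(TPM + 1)) the members' calls were 4 rises and 30 falls, and the median of all genes was -0.04 on that scale, against which the members' median was -0.14.

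**Figure D2:**
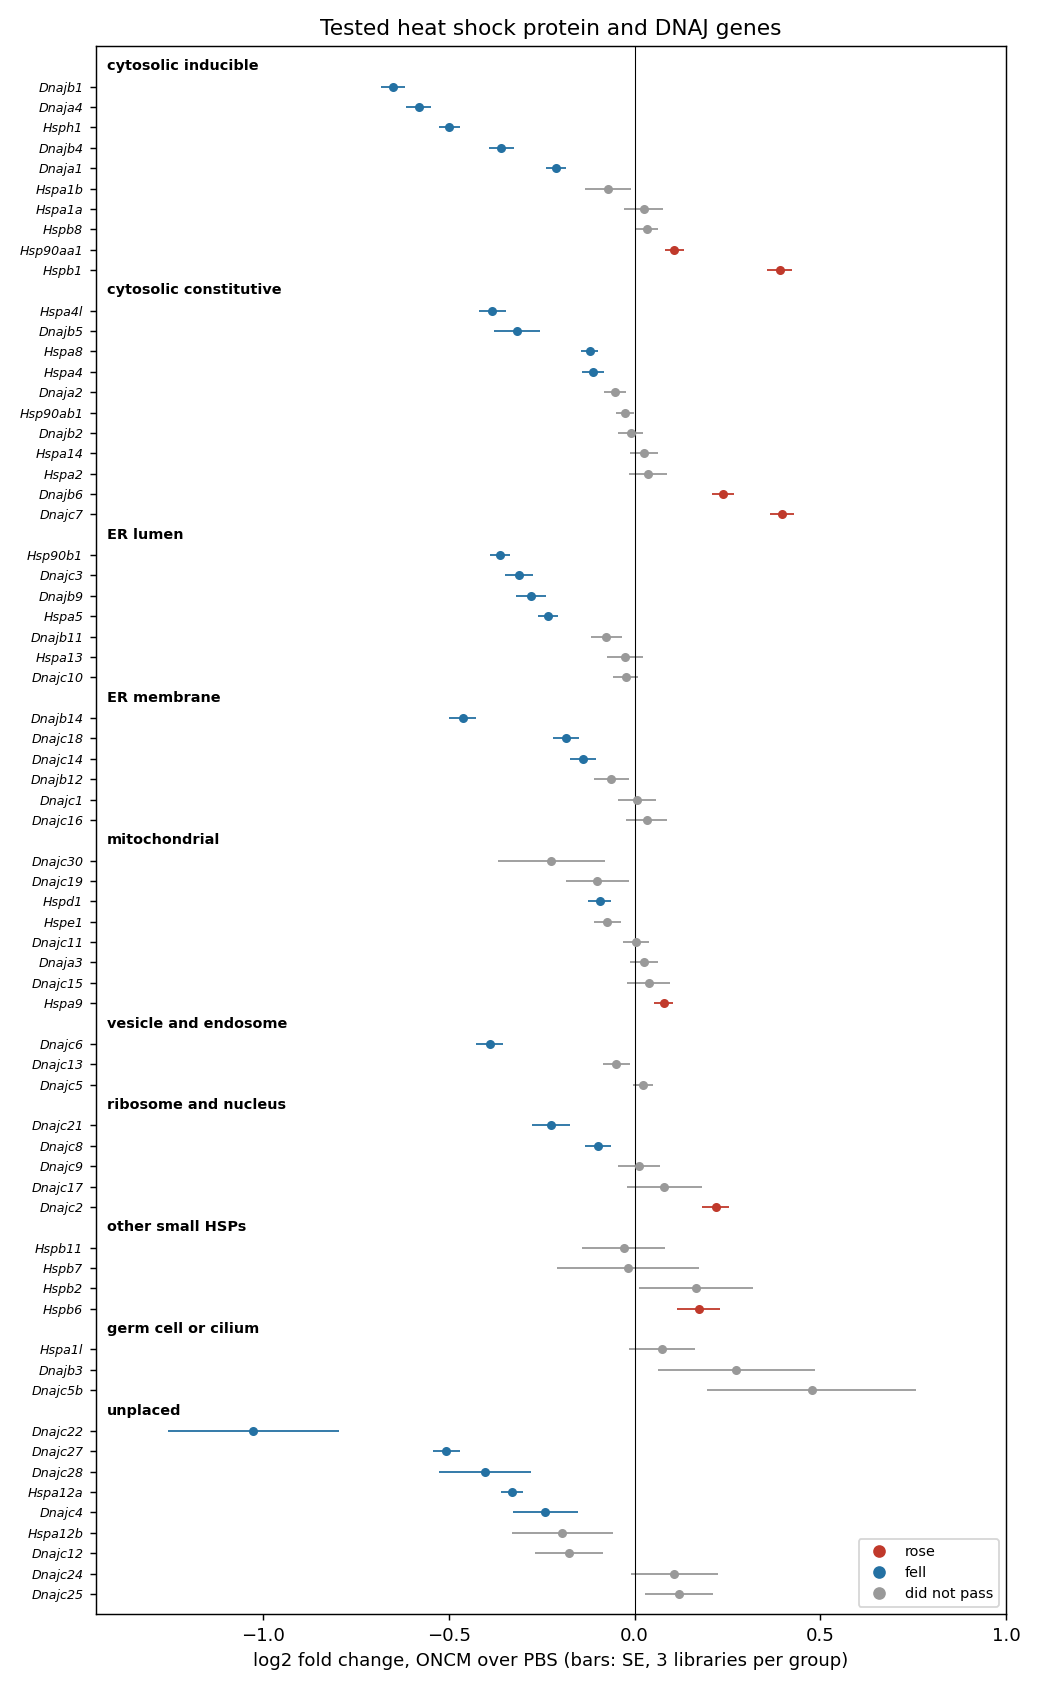
Log2 fold change of ONCM over PBS for each of the 66 tested members, grouped by where the protein works, with SE bars (3 libraries per group). Points coloured as risen number 7 and as fallen 25. The classes of the ER hold falls and no rises, as do the vesicle and endosome class and the unplaced members.

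The cytosolic stress-inducible genes divided, with 5 of 10 lower, 2 higher and 3 that did not pass. The called share of these 10 was 70.0%, beside 48.3% of all tested genes and 54.1% of the protein-coding ones. The DNAJ co-chaperones and the Hsp110 gene fell, while the inducible Hsp70 genes Hspa1a and Hspa1b did not pass and the small heat shock gene Hspb1 rose. The constitutive Hsp70 gene Hspa8, given below, fell. The median log2 fold change of the 10 was -0.14.

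Dnajb1 (chr8:83608175-83612653), the Hsp40 that serves inducible Hsp70, had 73.1, 73.1 and 73.0 CPM in the ONCM libraries and 116, 113 and 115 CPM in the PBS libraries. All ONCM libraries lay far below all PBS libraries, and the estimate, -0.65 on the log2 scale (SE 0.03, edgeR adjusted p = 9.15e-12), was the largest fall of this class. Dnaja4, an Hsp40 known as an Hsf1 target, had 75.7, 73.9 and 74.1 CPM with ONCM and 110.2, 112 and 113 CPM with PBS (log2 fold change -0.58, SE 0.03). Its exons overlap those of Wdr61 on the opposite strand over 44.1% of their length, and whether reads were counted by strand is not given in the sources used here. Hsph1 (chr5:149616843-149636498), the Hsp110 that exchanges nucleotide on Hsp70, had 326, 321 and 310.3 CPM with ONCM and 455, 452 and 445 CPM with PBS. It fell by 0.50 on the log2 scale (SE 0.03, edgeR adjusted p = 5.99e-11), with no overlap. Dnajb4 and Dnaja1, further Hsp40 co-chaperones of the cytosol, also fell without overlap of the groups. Dnajb4 had 74.2, 74.3 and 71.7 CPM with ONCM and 95.5, 94.8 and 92.1 CPM with PBS (log2 fold change -0.36), and Dnaja1 had 413, 408 and 403 CPM with ONCM and 468.2, 468.1 and 479.8 CPM with PBS (log2 fold change -0.21).

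The inducible Hsp70 pair behaved differently from its co-chaperones. Hspa1a had 450.5, 467 and 530.2 CPM in the ONCM libraries against 477, 485 and 461 CPM in the PBS libraries, and Hspa1b had 408, 434 and 492 CPM against 475, 475 and 453 CPM. The groups overlapped for both genes. ONCM replicate 3 stood above every PBS library for each. ONCM replicates 1 and 2 of Hspa1b lay below every PBS library, while for Hspa1a only ONCM replicate 1 did. The log2 fold changes were 0.02 (SE 0.05, edgeR adjusted p = 0.741) for Hspa1a and -0.07 (SE 0.06, edgeR adjusted p = 0.380) for Hspa1b. Without ONCM replicate 3, Hspa1b fell by 0.15 on the log2 scale (SE 0.03, edgeR adjusted p = 3.83e-04). The genes lie 10120 bases apart on chromosome 17 and their coding sequences are 99.4% identical, so reads may be divided between them uncertainly. With the counts summed, the log2 fold change was -0.02 (SE 0.06). Hspb8, a small heat shock protein that works with Bag3 in clearing misfolded proteins, had 288, 299.6 and 301 CPM with ONCM and 285, 289.5 and 294 CPM with PBS, with overlap, and did not pass.

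Hspb1 (Hsp25, chr5:135887919-135889563) was the inducible gene with the largest rise. Its libraries had 391.9, 393 and 427 CPM with ONCM and 311, 304 and 309 CPM with PBS, without overlap, a rise of 1.31-fold (log2 fold change 0.39, SE 0.03, edgeR adjusted p = 1.43e-08). A pseudogene copy, Hsp25-ps1 on chromosome 13, was counted at 23.9 ± 2.46 CPM with ONCM and 22.4 ± 2.61 CPM with PBS, and the log2 fold change with both summed was 0.37 (SE 0.03). Hsp90aa1 rose slightly, to 2105, 2056 and 2057 CPM with ONCM, against 1915, 1883 and 1977 CPM with PBS (1.08-fold). The groups did not overlap, but the call was lost on the TPM scale (log2 fold change 0.05, limma adjusted p = 0.412).

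**Figure D3:**
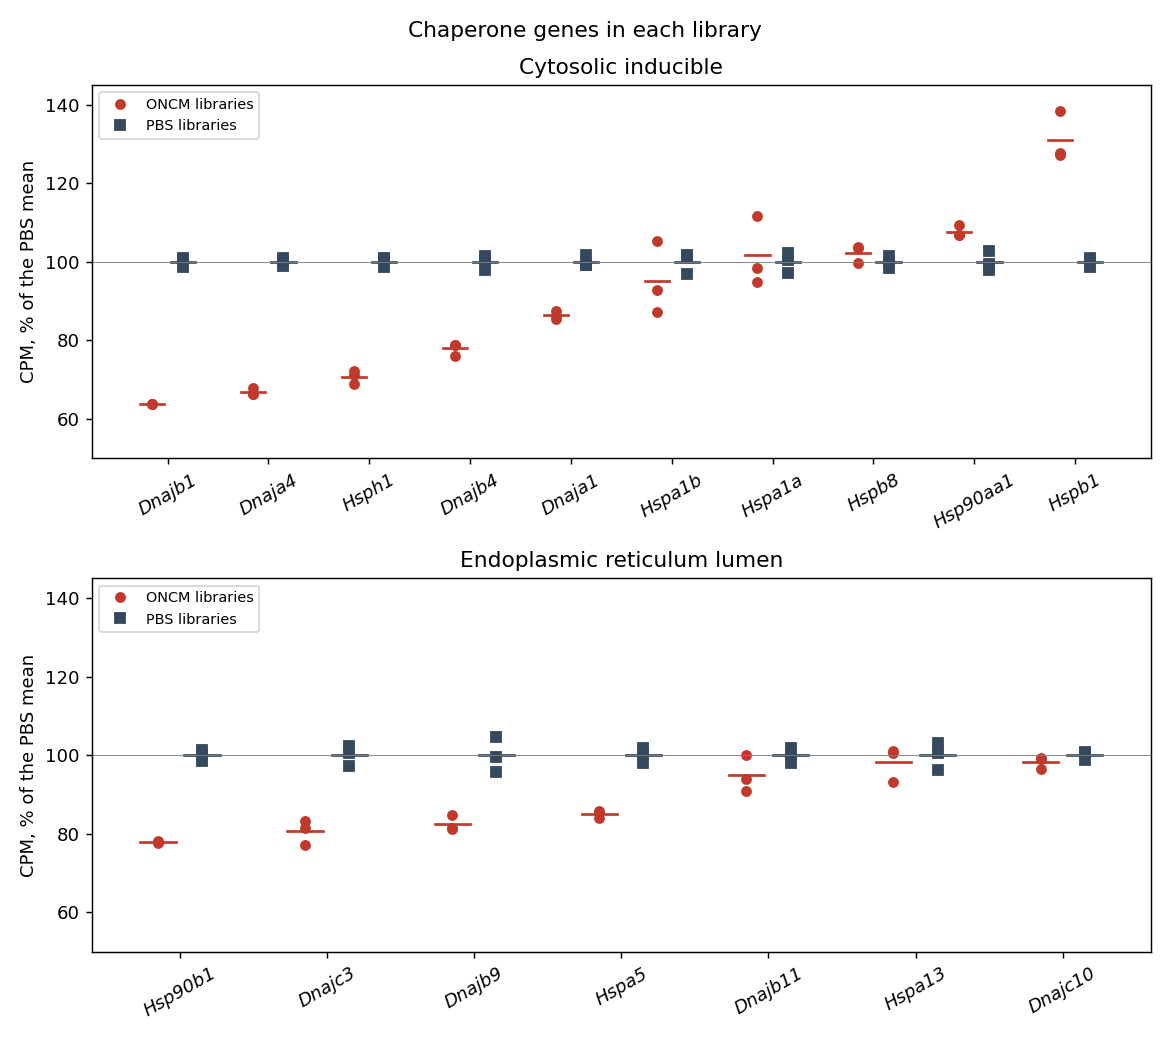
Each library's CPM as a percentage of the gene's PBS mean for the cytosolic inducible genes and the genes of the ER lumen, with ONCM libraries (circles) left of PBS libraries (squares) and a line at each mean. Dnajb1 sits at 63.7% and Hspb1 at 131% of PBS, while 1 ONCM library of Hspa1a and of Hspa1b lies apart from its other two.

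In the ER, 4 of the 7 lumen genes fell, none rose and 3 did not pass, with a median log2 fold change of -0.23. These calls were 57.1% of the class, near the 48.3% of all tested genes and the 54.1% of protein-coding ones. The estimates of all 7 were below 0, on CPM and on TPM. The falls took in the most abundant of the 7 and all 3 genes whose promoters, printed above, match the ER stress response element. Whether this element or the heat shock element took part in any change given here was not tested.

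Hspa5 (BiP, chr2:34772090-34776529), the ER Hsp70 and master regulator of the unfolded protein response, had 635, 634 and 623 CPM in the ONCM libraries and 743, 726 and 755 CPM in the PBS libraries. Each ONCM library was below each PBS library, and the log2 fold change was -0.23 (SE 0.03, edgeR adjusted p = 6.61e-07). Hsp90b1 (Grp94, chr10:86690841-86705444), the ER Hsp90, had 338, 337 and 339 CPM with ONCM and 435, 428 and 440.4 CPM with PBS. It fell by 0.36 on the log2 scale (SE 0.03, edgeR adjusted p = 2.33e-09), the largest fall of the lumen genes. Dnajc3 (p58IPK), a BiP co-chaperone that also restrains the kinase Perk, had 71.9, 70.5 and 66.7 CPM with ONCM and 87.0, 84.1 and 88.4 CPM with PBS (log2 fold change -0.31, SE 0.04). Dnajb9 (ERdj4), a co-chaperone that guides misfolded proteins to degradation, had 51.1, 51.0 and 53.2 CPM with ONCM and 62.5, 60.03 and 65.7 CPM with PBS. It fell by 0.28 on the log2 scale without an element match in its window.

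The other lumen genes differed by less than the spread allowed the test to call. Dnajb11 (ERdj3) had 58.7, 56.7 and 62.4 CPM with ONCM and 62.7, 63.5 and 61.1 CPM with PBS, and it passed only without ONCM replicate 3 (log2 fold change -0.12, edgeR adjusted p = 0.0155) or on log2(TPM + 1) (-0.14, limma adjusted p = 0.0441). Dnajc10 (ERdj5), a disulfide reductase, had 81.7, 81.5 and 79.3 CPM with ONCM and 82.8, 81.3 and 82.6 CPM with PBS. Hspa13, an Hsp70-like protein of microsomes, had 31.6, 29.3 and 31.7 CPM with ONCM and 31.6, 30.2 and 32.4 CPM with PBS. The groups overlapped for all of these, with log2 fold changes of -0.02 (SE 0.03) for Dnajc10 and -0.03 (SE 0.05) for Hspa13.

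J-proteins anchored in the ER membrane had 3 falls and no rise among 6. Dnajb14, which takes part in ER-associated degradation, fell to 92.2, 91.7 and 84.0 CPM with ONCM, against 124, 123 and 122 CPM with PBS (log2 fold change -0.46, SE 0.04, edgeR adjusted p = 7.91e-09). Its close relative Dnajb12 averaged 38.4 ± 1.11 CPM with ONCM and 40.1 ± 2.22 CPM with PBS and did not pass. Dnajc18 and Dnajc14 fell by 0.18 and 0.14 on the log2 scale, and Dnajc1 and Dnajc16 had estimates of 0.01 and 0.03 and did not pass.

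The constitutive chaperones of the cytosol moved in both directions, 4 of 11 lower and 2 higher, with a median of -0.03. Their share of calls, 54.5%, lay near those of all tested genes (48.3%) and protein-coding genes (54.1%). Hspa8, the housekeeping Hsp70, had 2796, 2795 and 2853 CPM with ONCM and 3066, 3033 and 3082 CPM with PBS, a log2 fold change of -0.12 (SE 0.02). Hspa4l, an Hsp110 relative, fell to 142.9, 143.7 and 132 CPM, against 187, 176 and 183 CPM with PBS (log2 fold change -0.38, SE 0.04, edgeR adjusted p = 8.42e-08). On the TPM scale Hspa4l varied more within groups, at 67.8 ± 15.3 TPM against 96.2 ± 21.5 TPM, and did not pass. Dnajc7, which passes clients between Hsp70 and Hsp90, rose 1.32-fold to 215, 218 and 225 CPM with ONCM, against 162, 167 and 170.3 CPM with PBS (SE 0.03 on the log2 scale, edgeR adjusted p = 5.73e-09). Dnajb6, a suppressor of protein aggregation whose promoter holds a heat shock element match, rose 1.18-fold, to 136 ± 1.08 CPM with ONCM against 115 ± 0.194 CPM with PBS. Over all 41 tested DNAJ genes there were 3 rises (Dnajc7, Dnajb6 and Dnajc2) and 17 falls. That is 48.8% called, near the 48.3% of all tested genes. Hsp90ab1 averaged 3335 ± 61.7 against 3397 ± 38.6 CPM and did not pass.

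Mitochondrial members had few calls, with 1 rise, 1 fall and 6 that did not pass of 8 (25.0% called, against 48.3% of all tested genes). Hspa9 (mortalin), the mitochondrial Hsp70, had 598, 594 and 607 CPM with ONCM and 569.7, 568 and 565 CPM with PBS, a rise of 1.06-fold. Hspd1 (Hsp60) had 407, 398 and 387 CPM with ONCM and 426, 409 and 436 CPM with PBS, and its partner Hspe1 (Hsp10) averaged 67.7 ± 1.58 against 71.2 ± 1.73 CPM. Their log2 fold changes were -0.09 (edgeR adjusted p = 0.0167) and -0.07 (edgeR adjusted p = 0.104), both without overlap of the groups, beside the shared promoter printed above. Hspe1 shares 7.60% of its exon bases with the more abundant Hspd1 on the opposite strand, which makes its value less certain. The Hspa9 call was lost without PBS replicate 1, 2 or 3 (edgeR adjusted p = 0.0639, 0.0648 and 0.0584) and on log2(TPM + 1) (limma adjusted p = 0.733), and the Hspd1 call without PBS replicate 3 (edgeR adjusted p = 0.0691). Dnaja3, Dnajc11, Dnajc15, Dnajc19 and Dnajc30, J-proteins of mitochondrial folding and import, had estimates from -0.22 to 0.04 on counts. On log2(TPM + 1) Dnajc19 passed as a fall, with an estimate of -0.48 (limma adjusted p = 0.00568), against -0.10 on counts. It shares 4.42% of its exon bases with the far more abundant Fxr1 on the opposite strand, so its value is less certain.

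Among J-proteins with special tasks, Dnajc6 (auxilin), which with Hsc70 strips clathrin from vesicles in neurons, fell to 130.5, 132.6 and 121 CPM with ONCM, against 169, 171 and 163 CPM with PBS (log2 fold change -0.39, SE 0.04). Dnajc5, the cysteine string protein of synaptic vesicles, averaged 301 ± 1.33 against 296 ± 4.88 CPM, and Dnajc13, of endosomes, 138.8 ± 6.99 against 143.6 ± 2.52 CPM, and neither passed. Dnajc2, a ribosome-associated J-protein, rose 1.16-fold to 60.1 ± 0.793 CPM with ONCM, against 51.6 ± 0.663 CPM with PBS. Dnajc21 and Dnajc8, of ribosome assembly and splicing, fell by 0.23 and 0.10 on the log2 scale, the second only while PBS replicates 1 and 3 were both kept (edgeR adjusted p = 0.0586 without the first of these and 0.0568 without the other). Of the remaining small heat shock genes Hspb6 rose 1.13-fold to 17.7 ± 0.592 CPM, against 15.7 ± 0.480 CPM with PBS. That call was lost without ONCM replicate 2, PBS replicate 1 or PBS replicate 2 (edgeR adjusted p = 0.0755, 0.0968 and 0.0516), and on log2(TPM + 1) (limma adjusted p = 0.0992). Hspb2 shares 30.2% of its exon bases with the far more abundant Cryab on the opposite strand, and its value of 2.48 ± 0.293 against 2.21 ± 0.371 CPM is uncertain for that reason.

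Members that no class above holds had 5 falls and no rise among 9 tested, with a median log2 fold change of -0.24. Their called share of 55.6% was near the 48.3% of all tested genes and the 54.1% of protein-coding ones. Dnajc27, a J-protein joined to a Rab-like GTPase, had 47.3, 47.0 and 46.1 CPM with ONCM and 65.5, 66.6 and 67.5 CPM with PBS (log2 fold change -0.51, SE 0.04, edgeR adjusted p = 1.52e-09). Hspa12a, a distant Hsp70 relative, fell to 603, 608 and 577 CPM, against 761, 760.4 and 727 CPM with PBS (log2 fold change -0.33, SE 0.03). The member with the largest estimate, Dnajc22, rested on few reads, at 0.922 ± 0.301 CPM with ONCM and 1.88 ± 0.460 CPM with PBS (log2 fold change -1.03, SE 0.23). Dnajc28 and Dnajc4 fell by 0.40 and 0.24. The Dnajc4 call was lost without ONCM replicate 1, PBS replicate 1 or PBS replicate 2 (edgeR adjusted p = 0.177, 0.0847 and 0.0790) and with DESeq2's Wald test (adjusted p = 0.0586).

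The wider chaperone system was read from lists of partner genes. Of 4 heat shock factor genes, Hsf1, the main activator of inducible chaperones, fell to 31.6 ± 1.46 CPM with ONCM, against 37.4 ± 2.18 CPM with PBS (log2 fold change -0.24, SE 0.05, edgeR adjusted p = 6.28e-04). Hsf4 fell by 0.20, and Hsf2 and the inhibitor Hsbp1 did not pass; without ONCM replicate 2 the Hsf4 call was lost (edgeR adjusted p = 0.0536) and Hsbp1 passed as a rise (edgeR adjusted p = 0.0404). Of 22 co-chaperones of Hsp70 and Hsp90, 10 fell, 4 rose and 8 did not pass, with a median of -0.08. The called share was 63.6%, beside 48.3% of all tested genes and 54.1% of protein-coding ones. Fkbp4 (Fkbp52), an Hsp90 co-chaperone of steroid receptors, fell to 221 ± 10.8 CPM, against 345 ± 3.59 CPM with PBS (log2 fold change -0.64, SE 0.03, edgeR adjusted p = 1.65e-11). Chordc1, Fkbp5 and Stip1 (Hop), the last of which links Hsp70 to Hsp90, fell by 0.43, 0.43 and 0.27. Bag1, a nucleotide exchange factor of Hsp70, rose 1.19-fold, and Bag3 at 378 ± 14.6 against 397 ± 2.55 CPM did not pass. Bag3 passed as a fall without ONCM replicate 3 (log2 fold change -0.10, edgeR adjusted p = 0.00463) and on log2(TPM + 1) (-0.13, limma adjusted p = 0.0436).

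Of the 23 further genes of ER folding and the unfolded protein response, 10 fell, 3 rose and 10 did not pass, with a median of -0.09. Calls made up 56.5% of this list, near the 48.3% of all tested genes and the 54.1% of protein-coding ones. Herpud1, of ER-associated degradation, fell to 51.6 ± 2.39 CPM, against 69.4 ± 1.27 CPM with PBS (log2 fold change -0.43, SE 0.04), and Sel1l, of the same machinery, and Sil1, the nucleotide exchange factor of BiP, fell by 0.18 and 0.30. P4hb, a protein disulfide isomerase, rose 1.15-fold, and so did Ern1 (Ire1), the sensor that splices Xbp1 mRNA, by 1.21-fold, a call lost on log2(TPM + 0.1) (limma adjusted p = 0.0529). Atf6 and Xbp1 themselves had log2 fold changes of -0.05 (SE 0.04) and -0.04 (SE 0.04) and did not pass.

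The cytosolic chaperonin TRiC, a ring that folds actin and tubulin, was higher with ONCM. Of its 8 subunit genes 7 rose, none fell and Cct2 did not pass, with a median log2 fold change of 0.13. Rises made up 87.5% of this list, beside 23.9% of all tested genes. Leaving out 1 library at a time gave 5 to 7 rises. The Tcp1 call was lost without ONCM replicate 1, PBS replicate 1 or PBS replicate 2 (edgeR adjusted p = 0.0623, 0.0934 and 0.128). The Cct6a call was lost without PBS replicate 1 or PBS replicate 2 (edgeR adjusted p = 0.0745 and 0.0744). Cct3 rose to 330 ± 8.19 CPM with ONCM, against 279 ± 3.82 CPM with PBS (1.18-fold, edgeR adjusted p = 1.40e-06), and Cct8 to 405 ± 2.74 against 348 ± 9.56 CPM (1.17-fold). Cct5 and Cct7 rose 1.15-fold and 1.10-fold. On log2(TPM + 1) the list's median was 0.07, only Cct3, Cct5 and Cct8 rose, Cct7 did not pass (limma adjusted p = 0.159), and the estimate of 1 subunit was below 0. Of 12 mitochondrial chaperone partners and proteases 4 rose and 1 fell: Grpel1, Clpp, Lonp1 and Hscb rose 1.14-fold, 1.15-fold, 1.09-fold and 1.24-fold, and Trap1, the mitochondrial Hsp90, fell by 0.13 on the log2 scale, a call lost without ONCM replicate 2 (edgeR adjusted p = 0.0607). The calls were 41.7% of these 12 genes, beside 48.3% of all tested genes. Each of the 4 rises was lost under some alternative. Lonp1 did not pass on log2(TPM + 1) (limma adjusted p = 0.297) or without PBS replicate 3 (edgeR adjusted p = 0.0687), Hscb without PBS replicate 1 (edgeR adjusted p = 0.0671), and Grpel1 and Clpp on log2(TPM + 0.1) (limma adjusted p = 0.0575 and 0.0582).

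**Figure D4:**
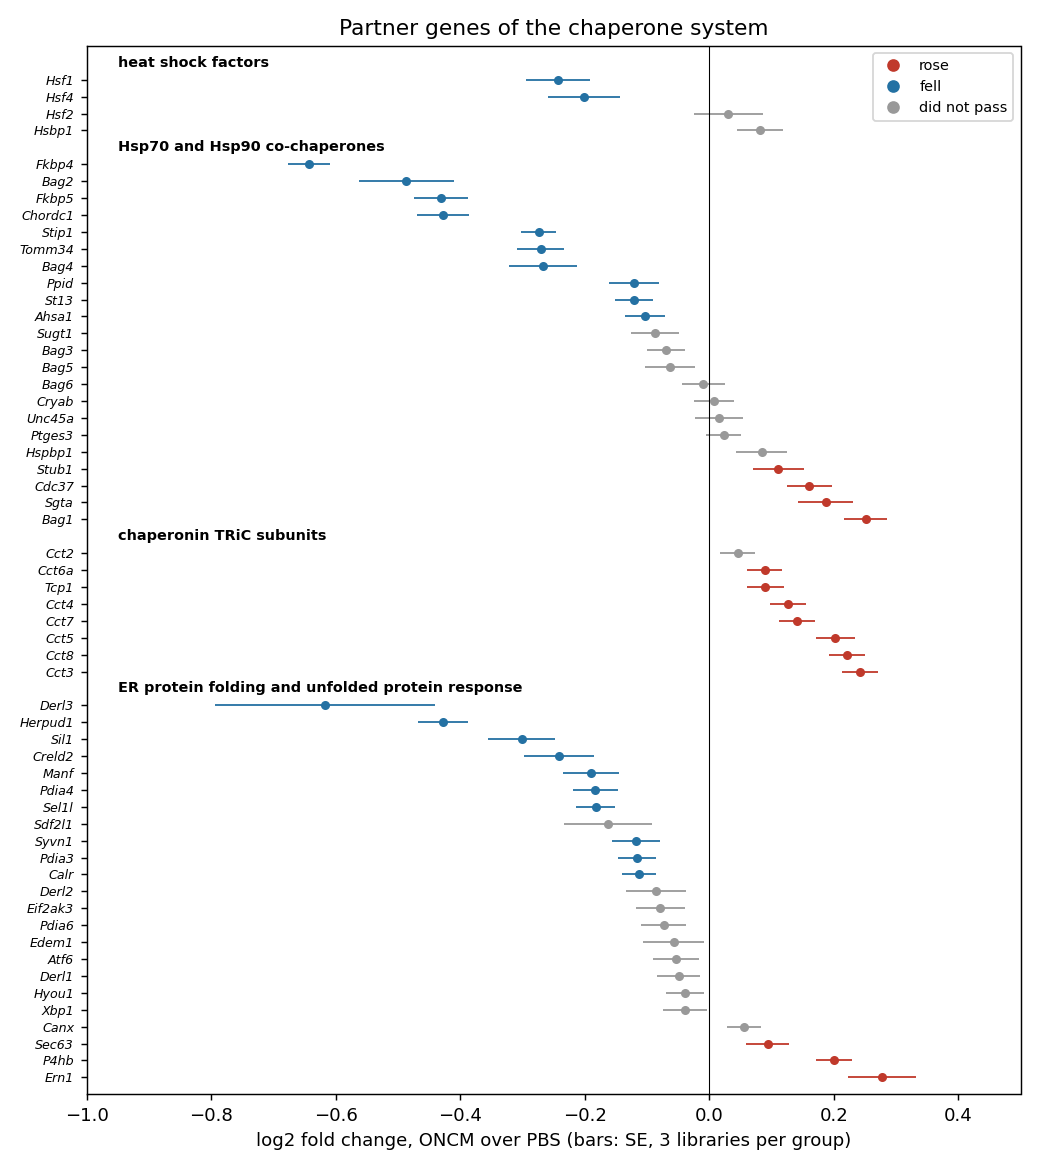
Log2 fold change of ONCM over PBS, with SE bars (3 libraries per group). Rows are heat shock factors with the inhibitor Hsbp1, co-chaperones of Hsp70 and Hsp90, subunits of the chaperonin TRiC and further genes of ER folding. The TRiC estimates all lie above 0 on this scale, while 14 of 22 co-chaperones and 19 of 23 ER genes lie below 0.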

How the data were processed

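RNA was sequenced from 6 libraries, 3 ONCM and 3 PBS. The authors deposited 1 table with raw read counts per gene, FPKM and TPM for each library. The deposited counts were used as they stand, the deposited TPM served for levels between genes and as an alternative scale, and the deposited FPKM values were not used. The genome build is mm10, per the submitters' processing notes, while aligner, counter and strandedness were not stated in the labels or the file. Columns were matched to samples by the codes in the labels.

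The fit used edgeR 4.0.16 under R 4.3.3 (filterByExpr, TMM, estimateDisp, robust quasi-likelihood F-test, no covariate), with Benjamini-Hochberg adjustment over all 20354 tested genes. The SE is the log2 fold change divided by the square root of F. The procedure was tested on simulated counts drawn with this fit's own dispersions and far fewer changed genes than were called here. That test cannot show how many calls in these data are right. CPM is TMM-scaled, and 3 counts in a library equal 0.0464 to 0.0558 CPM, for counting error only. Replicates within a group differed by more than sampling noise (chi-square per degree of freedom 2.85 to 7.72 over genes with at least 40 counts in a pair). Alternatives used DESeq2 1.42.0, limma 3.58.1 and each library left out. Summing Hspb1 with its pseudogene was chosen after seeing the data. RefSeq coordinates matched all 72 members.

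Values are given per library for the cytosolic inducible and ER lumen genes, and per library or as means for up to 4 members of each other class with the smallest p-values, and from each partner list up to 4 genes with the smallest p-values plus Hsf1, Atf6 and Xbp1. Others named were chosen after their values were seen. The members, classes and lists were chosen with earlier results of these data known.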

Additional observations from a re-analysis of the deposited data

How the results depend on the processing

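All 32 calls among the members kept their direction under every alternative run, and 25 of them also kept the call in all of them. The lost calls were those of Dnajc4, Dnajc8, Hsp90aa1, Hspa4l, Hspa9, Hspb6 and Hspd1. DESeq2 size factors, no filter on low counts and the replicate block each kept all 32 calls (7 rises and 25 falls with the block), and DESeq2's own test kept 31. Deviations of same-numbered libraries from their group means correlated at -0.045 to 0.002. Such values cannot show whether these libraries were prepared together, and the labels do not say. With log2(TPM + 1) and log2(TPM + 0.1) the members' median log2 fold change was -0.14 and -0.14, with 4 rises in each. Rises were 1 and 1 among cytosolic inducible genes, 0 and 0 among mitochondrial members, 1 and 1 among co-chaperones, and 3 and 3 in TRiC. Falls among mitochondrial members were 3 and 2, and among mitochondrial partners and proteases 3 and 2. With log2(TPM + 0.1) the rises were 1 in the ER folding list, 1 among mitochondrial partners and 3180 over all genes, against 3395 with log2(TPM + 1), where rises were 38.8% of calls (49.5% on counts). Dnajb2, Dnajb12, Dnajc19 and Hspe1 passed as falls on both TPM scales and not on counts, and Dnajb11 and Hspa12b on the first alone. The cause of the difference between the scales was not tested.

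Leaving out 1 library at a time gave 5 to 8 rises and 23 to 27 falls among the members. Mitochondrial members then had 0 to 1 rises and 0 to 2 falls, and mitochondrial partners 0 to 1 falls. The heat shock factor list, with Hsbp1, had 0 to 1 rises and 1 to 2 falls. Co-chaperones had 3 to 4 rises and 9 to 11 falls, and the ER folding list 2 to 4 rises and 8 to 12 falls. The rise of the co-chaperone Stub1 was lost without ONCM replicate 3 or any 1 PBS library. That of Sec63, in the ER folding list, was lost without any 1 library other than ONCM replicate 3. Both were also lost with no filter on low counts. Members that did not pass with all libraries but did without 1 were Dnajb3 (without ONCM replicate 1), Dnajc30 (without ONCM replicate 2) and Dnajb11 and Hspa1b (without ONCM replicate 3). Of the 7 lost calls among the members, 6 were of changes under 1.25-fold.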
